A study of Homo sapiens with 6 samples.

Results

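AP-1 is a family of dimeric transcription factors, and the 10 genes described here are its main subunits together with factors that are induced alongside them. The members, of 62696 genes in the count tables, are FOS, FOSB, FOSL1 and FOSL2 of the Fos family, JUN, JUNB and JUND of the Jun family, ATF3, EGR1 and IER2. They were chosen by symbol with the counts of this contrast between the lines already known, so the values that chose them are given as a description, without a test. All 10 symbols matched a single gene in the files.

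The knockout line consisted of C4-2 cells in which CDK12 had been knocked out with CRISPR-Cas9 (CDK12KO, 3 libraries). It was set against C4-2 cells with the vector, labelled WT for CDK12 (VEC, 3 libraries). C4-2 is an established human cell line of castration-resistant prostate cancer, and CDK12 is a kinase of RNA polymerase II. Both lines grew in RPMI1640 with serum and are labelled as untreated; feeding and harvest times are not given in the labels. The labels do not say whether the knockout line was 1 clone or a pool, or whether libraries came from separate cultures, so p-values measure only how these libraries scatter, which may be technical variation.

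A Fos protein binds DNA as a dimer, mainly with a Jun protein, held by a leucine zipper, whereas Jun proteins can also pair with each other. FOS, FOSB, JUN, JUNB, ATF3, EGR1 and IER2 are known as immediate early genes, whose transcription starts within minutes of a growth signal or stress without new protein synthesis, and whose RNA decays fast. FOSL1 and FOSL2 follow later, and JUND is made steadily in many cell types.

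CDK12 RNA stood at 60.8, 56.9 and 56.5 CPM in CDK12KO and at 60.2, 48.0 and 57.1 CPM in VEC, with overlapping groups. A small edit can end the protein and leave gene-level counts as they were, so these values do not check the knockout labels. Sequencing depth was 24660798 to 30732841 reads a library, and 16617644 to 21590817 of them fell in genes. CDK12KO library 2 stood apart: its log2 CPM correlated with the other 5 libraries across genes at 0.916 to 0.950, against 0.977 to 0.990 among those 5. The fold change of each tested member and the counts for each list are therefore given with and without it. For many other named genes the fold change or adjusted p is given only without CDK12KO library 2. With all libraries, PHLDA1, HES1 and DUSP4 were the only listed genes or neighbours below an adjusted p of 0.05 by edgeR. All 12 prostate luminal markers, among them KLK3, averaged at least 1 CPM, and their summed level was 8262 to 11061 CPM in CDK12KO and 9672 to 9875 CPM in VEC. Of 5 leukocyte markers 0 averaged 1 CPM, CD3E was at 0 counts in every library, and the list summed to 0.189 to 0.414 CPM in CDK12KO and 0.112 to 0.205 CPM in VEC. TP63 and DSG3 of 4 basal markers, DCN of 6 stromal markers and PECAM1 of 3 endothelial markers were also at 0 counts in every library, which allows up to 0.189 CPM in any library. The basal list summed to 0.283 to 1.70 CPM in CDK12KO and 0.560 to 0.769 CPM in VEC. The stromal sum was 25.5 to 32.4 CPM in CDK12KO and 22.7 to 24.6 CPM in VEC, the endothelial sum 6.61 to 10.3 CPM in CDK12KO and 4.56 to 5.12 CPM in VEC.

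FOS, the founding Fos subunit, had the widest gap between the lines of all 10 members. Levels are in CPM, read counts relative to the TMM-scaled library total. FOS stood at 9.06, 4.28 and 9.62 CPM in CDK12KO libraries 1 to 3 and at 0.512, 0.728 and 0.934 CPM in VEC libraries 1 to 3. The lowest knockout library, number 2, was still above every vector library. These levels rest on 192, 68 and 186 reads in CDK12KO and on 10, 13 and 17 reads in VEC, so the vector level is known only roughly. The mean was 7.65 ± 2.94 CPM in CDK12KO and 0.725 ± 0.211 CPM in VEC (SD, n = 3 each), a ratio of 10.6, and 12.9 without CDK12KO library 2. On the log2 scale the fitted fold change was 3.40 ± 0.41 (SE) with all libraries and 3.68 ± 0.26 without CDK12KO library 2. Since RNA was taken from bulk cells, more FOS RNA per cell and more cells with FOS RNA cannot be told apart.

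**Figure D1:**
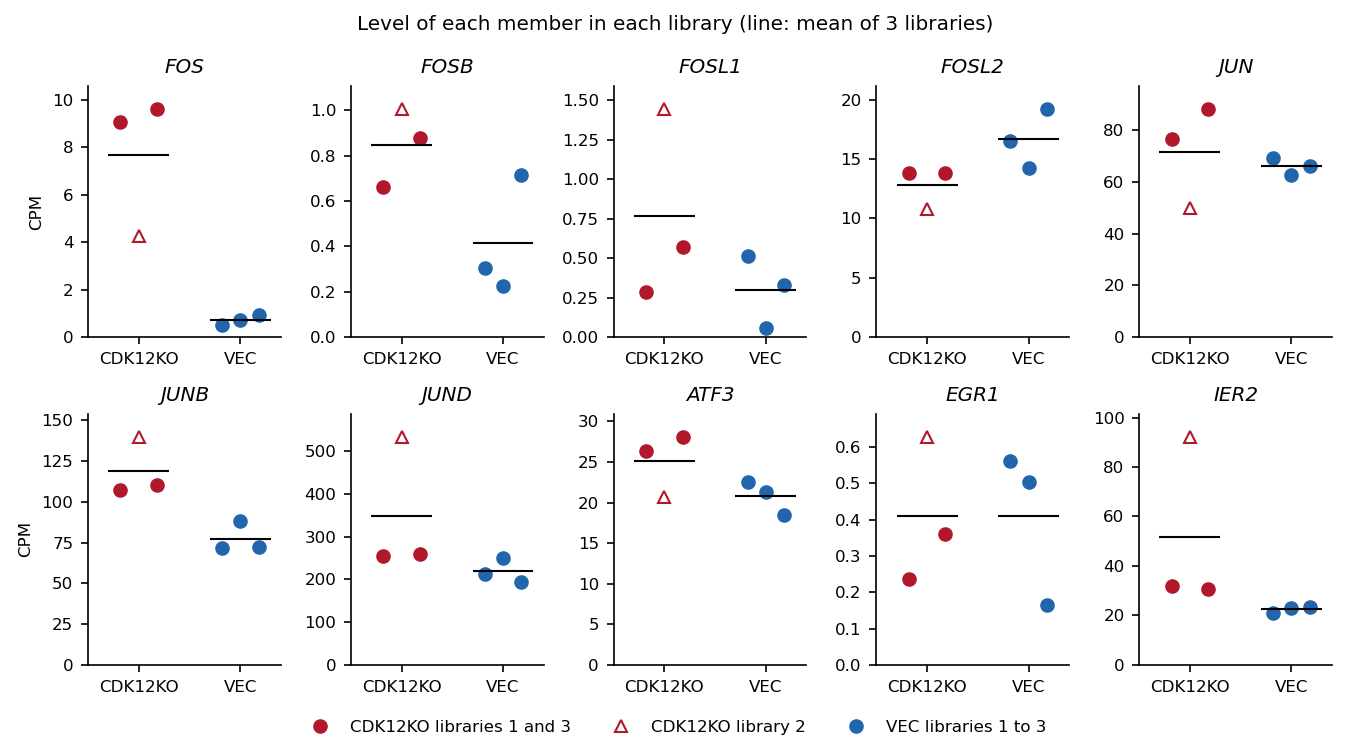
Level of each member in CPM (vertical axis, from 0) in the CDK12KO and VEC libraries, with points for libraries, an open triangle for CDK12KO library 2 and a line for the mean of 3 libraries. FOS lies at 4.28 to 9.62 CPM in CDK12KO and at 0.512 to 0.934 CPM in VEC, whereas EGR1 lies at 0.236 to 0.629 CPM in CDK12KO and 0.165 to 0.563 CPM in VEC.

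The other Fos genes showed no such gap, though FOSB and FOSL1 had few reads, which limits what can be said of them. FOSB, a close relative of FOS, stood at 0.661, 1.01 and 0.879 CPM in CDK12KO and at 0.307, 0.224 and 0.714 CPM in VEC, from 4 to 17 reads a library. The groups overlapped, and the log2 fold change was 1.01 ± 0.51, and 0.87 ± 0.60 without CDK12KO library 2. FOSL1 (Fra-1) ranged from 0.283 to 1.45 CPM in CDK12KO and from 0.0560 to 0.512 CPM in VEC, on at most 23 reads, with overlapping groups. Its log2 fold change was 1.28 ± 0.82 with all libraries and 0.46 ± 0.76 without CDK12KO library 2. FOSL2 (Fra-2) went the other way: it stood at 13.8, 10.8 and 13.9 CPM in CDK12KO and at 16.5, 14.2 and 19.2 CPM in VEC. Every knockout library lay below every vector library, but only by the step between 13.9 CPM in CDK12KO and 14.2 CPM in VEC. The log2 fold change of FOSL2 was -0.38 ± 0.18, and -0.28 ± 0.14 without CDK12KO library 2.

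FOSL2 was the most abundant Fos transcript in every vector library and in CDK12KO library 2, and FOS in CDK12KO libraries 1 and 3. Levels of different genes are compared as CPM per kb of exonic length. FOS made up 56.0%, 35.0% and 55.4% of the summed Fos family level in CDK12KO libraries 1 to 3, against 5.66%, 9.85% and 8.80% in VEC libraries 1 to 3. The FOSL2 share was 38.2 ± 1.91% in CDK12KO and 83.9 ± 2.78% in VEC (SD, n = 3 each). Per kb, the family summed to 4.71 ± 0.834 CPM in CDK12KO and 2.78 ± 0.499 CPM in VEC, and every knockout sum was above every vector sum.

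**Figure D2:**
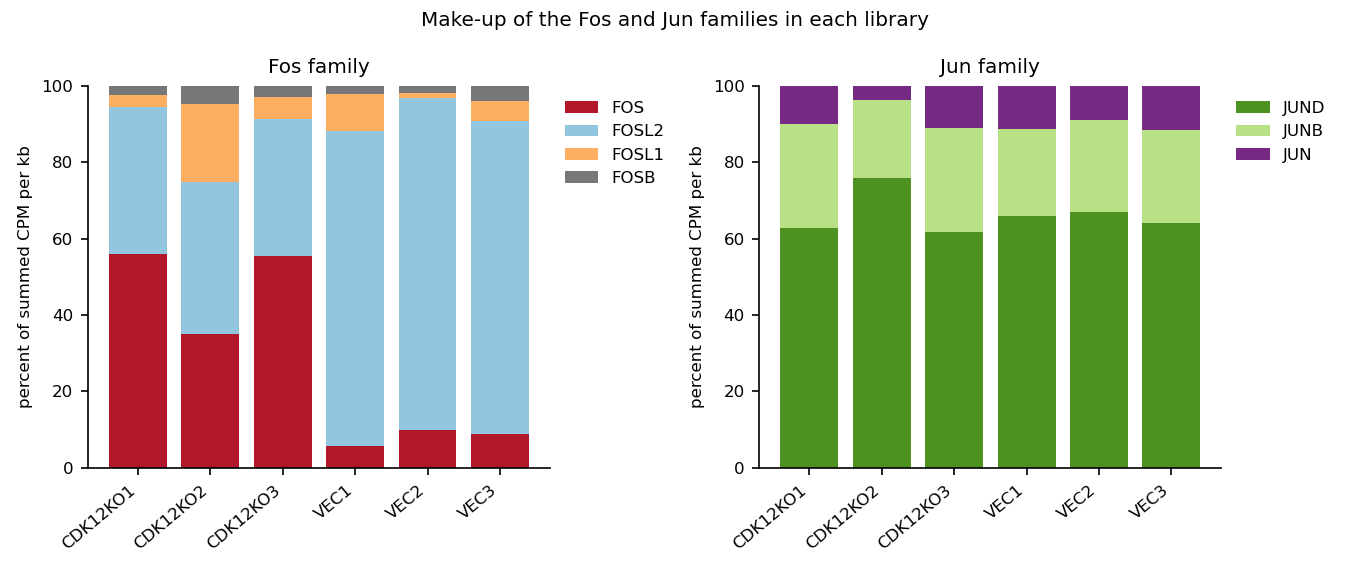
Share of each subunit in the summed CPM per kb of exonic length (vertical axis, percent) of the Fos and the Jun family, as stacked bars with 1 bar a library, CDK12KO left of VEC. FOS takes 35.0% to 56.0% of the Fos family in CDK12KO and 5.66% to 9.85% in VEC, whereas JUND holds 61.8% to 75.9% of the Jun family in CDK12KO and 64.2% to 66.9% in VEC.

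The Jun genes, which supply the partners, were far more abundant than the Fos genes. JUND was the highest at 254, 534 and 259 CPM in CDK12KO and 214, 250 and 195 CPM in VEC. The groups were separated only by the step between 254 CPM in CDK12KO and 250 CPM in VEC, and library 2 was far above the other knockout libraries. The log2 fold change was 0.67 ± 0.31 with all libraries and 0.22 ± 0.08 without CDK12KO library 2. JUNB, a Jun protein with weaker activating power than JUN, stood at 107, 140 and 111 CPM in CDK12KO and at 71.8, 88.5 and 72.1 CPM in VEC. All knockout libraries were above all vector libraries, with a log2 fold change of 0.62 ± 0.16, and 0.48 ± 0.08 without CDK12KO library 2.

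JUN itself gave a different answer with each set of libraries. It stood at 76.5, 49.9 and 88.4 CPM in CDK12KO and at 69.4, 62.7 and 66.2 CPM in VEC. Knockout libraries 1 and 3 were above the vector range and library 2 below it. Its log2 fold change was 0.12 ± 0.21 with all libraries, 0.31 ± 0.08 without CDK12KO library 2 and -0.06 without CDK12KO library 3. The make-up of the Jun family differed less than that of the Fos family, with JUND at 66.9 ± 7.84% in CDK12KO and 65.7 ± 1.37% in VEC (SD, n = 3 each). JUNB had 24.9 ± 3.88% in CDK12KO and 23.8 ± 0.923% in VEC. The Jun family summed to 217, 378 and 224 CPM per kb in CDK12KO libraries 1 to 3 and to 163 to 200 CPM per kb in VEC.

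ATF3, EGR1 and IER2 are known to answer the same stimuli as FOS and differed in their behaviour here. ATF3, a stress-induced factor that can pair with Jun proteins, stood at 26.4, 20.7 and 28.1 CPM in CDK12KO and at 22.5, 21.3 and 18.5 CPM in VEC. Knockout library 2 fell inside the vector range, and libraries 1 and 3 lay above it. The log2 fold change of ATF3 was 0.27 ± 0.16 with all libraries and 0.38 ± 0.11 without CDK12KO library 2. EGR1, a zinc finger factor that serum and growth factors induce together with FOS, was close to absent at 5, 10 and 7 reads in CDK12KO and 11, 9 and 3 reads in VEC. That amounts to 0.409 ± 0.201 CPM in CDK12KO and 0.411 ± 0.215 CPM in VEC (SD, n = 3 each). EGR1 did not pass the filter on low counts, and a difference between the lines was not detectable at this depth.

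IER2, a small nuclear protein gene, stood at 32.0, 92.3 and 30.7 CPM in CDK12KO and at 21.1, 22.9 and 23.2 CPM in VEC. Its log2 fold change was 1.20 ± 0.43 with all libraries and 0.48 ± 0.10 without CDK12KO library 2. This count covers only part of the gene, because reads that also overlap a gene on the other strand were set aside as ambiguous. The sum of the stranded columns restores them: 1573, 963 and 1435 such reads in CDK12KO and 1259, 1199 and 1068 in VEC lay on IER2. They were 69.9%, 39.6% and 70.7% of all IER2 reads in CDK12KO libraries 1 to 3 and 71.6% to 75.3% in VEC (95% Wilson interval 37.7% to 41.6% in CDK12KO library 2 and 69.3% to 73.9% in VEC library 3, for counting error only). The genes on the other strand, ENSG00000267598 and ENSG00000287296, had 0 reads of their own in every library. This does not show whose the shared reads were, since a gene wholly within the exons of IER2 can have no reads of its own. How far these genes lie within IER2 was not examined. With the shared reads, IER2 stood at 106, 153 and 105 CPM in CDK12KO and at 85.6, 90.0 and 81.9 CPM in VEC, a log2 fold change of 0.48 ± 0.16, and 0.28 ± 0.07 without CDK12KO library 2. All knockout libraries stayed above all vector libraries on either count.

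JUNB loses reads in the same way, to HOOK2 on the other strand. The shared reads were 1110, 865 and 881 in CDK12KO and 636, 691 and 621 in VEC. With them JUNB averaged 170 ± 21.3 CPM in CDK12KO and 113 ± 12.7 CPM in VEC (SD, n = 3 each). Its log2 fold change was 0.57 ± 0.14 on that count and 0.47 ± 0.08 without CDK12KO library 2. The other 8 members had at most 1 shared read in any library. The libraries carry no strand, so which of a pair of overlapping genes a shared read came from cannot be told apart.

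**Figure D3:**
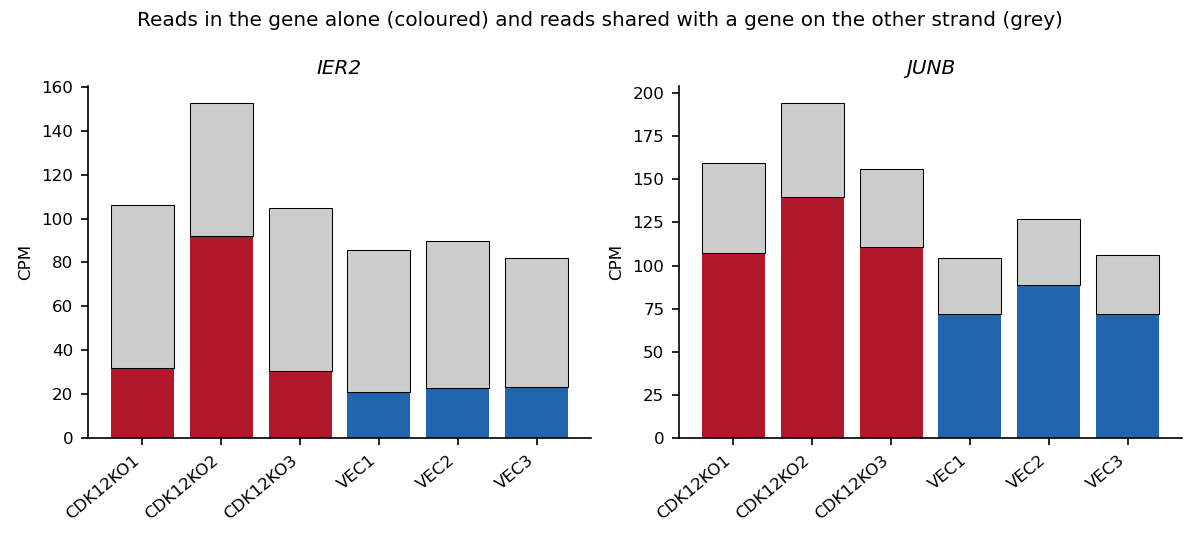
CPM of IER2 and JUNB (vertical axis, from 0) in each library as stacked bars, with reads in the gene alone in colour (CDK12KO red, VEC blue) and reads shared with a gene on the other strand in grey. In IER2 the coloured part of CDK12KO library 2 is 92.3 CPM, against 30.7 and 32.0 CPM in the other knockout libraries, while its whole bar is 153 CPM against 105 and 106 CPM.

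Ranked by level per length, the members spanned 3 orders of magnitude. In VEC the order was JUND at 118 ± 14.9 CPM per kb, JUNB at 42.6 ± 5.25, JUN at 18.7 ± 0.952, IER2 at 7.30 ± 0.368, ATF3 at 5.15 ± 0.509 and FOSL2 at 2.33 ± 0.350 (SD, n = 3 each). The vector ranges of these 6 genes did not overlap between neighbours in that order. FOS at 0.224 ± 0.0652, FOSL1 at 0.159 ± 0.122, EGR1 at 0.131 ± 0.0685 and FOSB at 0.0747 ± 0.0473 CPM per kb followed, each overlapping its neighbour. In CDK12KO the order of the first 5 was the same, with JUN and IER2 overlapping, and FOS at 2.36 ± 0.907 CPM per kb overlapped FOSL2 at 1.79 ± 0.247 CPM per kb. These IER2 and JUNB levels leave out the shared reads, and with them the order of IER2 and JUN turned. IER2 then stood at 39.5 ± 8.90 CPM per kb in CDK12KO and 27.9 ± 1.32 CPM per kb in VEC (SD, n = 3 each), above JUN in every library, and JUNB at 93.4 ± 11.7 CPM per kb in CDK12KO and 61.9 ± 6.97 CPM per kb in VEC.

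**Figure D4:**
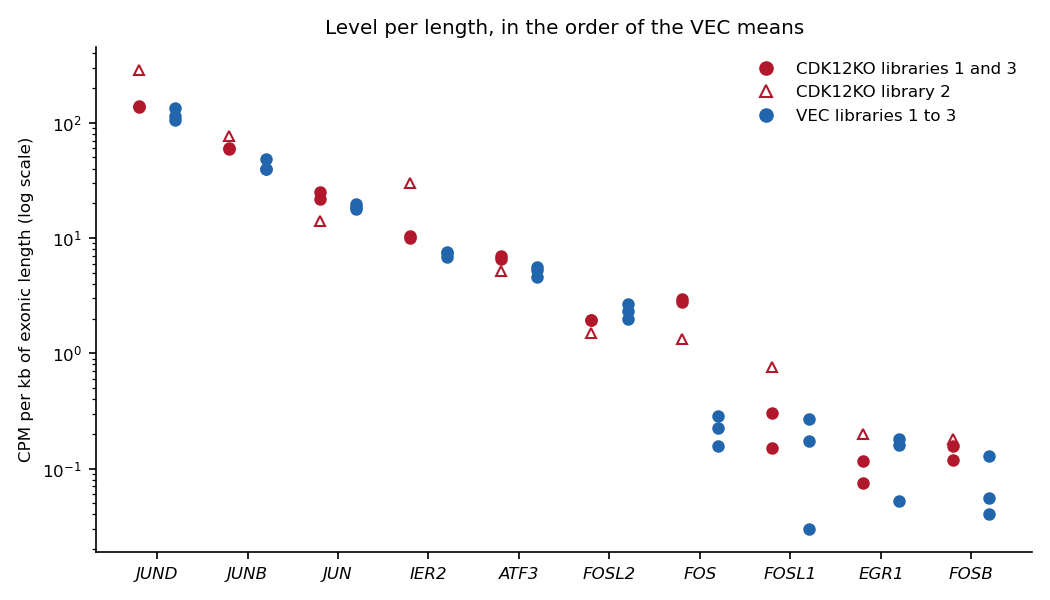
Level per length of the members (CPM per kb of exonic length, log scale) in the order of the vector means, with a point for each library, CDK12KO left of VEC and an open triangle for CDK12KO library 2. FOS stands at 1.32 to 2.97 CPM per kb in CDK12KO and 0.158 to 0.288 CPM per kb in VEC, next to FOSL2 at a mean of 1.79 CPM per kb in CDK12KO and 2.33 CPM per kb in VEC.

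Of the 10 members 5 had groups that did not overlap, 4 higher in CDK12KO (FOS, JUNB, JUND and IER2) and 1 lower (FOSL2), where 39.4% of all 15783 tested genes had such groups, 20.4% higher and 19% lower. In edgeR's quasi-likelihood test over all genes, at an adjusted p of 0.05, 1 of 9 tested members passed with all libraries, FOS, where 0.596% of all tested genes passed, 0.418% higher and 0.177% lower. Without CDK12KO library 2 it was 5 of 9, FOS, JUN, JUNB, ATF3 and IER2, all higher, where 19.1% of all tested genes passed, 10.2% higher and 8.88% lower. With all libraries the FOS call ended in limma-voom, with the replicate block and on leaving out any 1 library other than CDK12KO library 2. In the fit without CDK12KO library 2, FOS and JUNB passed under every alternative run. There the JUN call ended without CDK12KO library 3, the IER2 call without CDK12KO library 1, and the ATF3 call without CDK12KO library 1, CDK12KO library 3 or VEC library 3. The members were chosen with this contrast known, so nothing is read from these counts. FOSB passed the filter with 3 knockout libraries and 1 vector library at its level of 0.548 CPM, and FOSL1 with 2 knockout libraries and 1 vector library.

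On the CPM scale library 2 moved the members in opposite directions. Against the mean log2 CPM of knockout libraries 1 and 3 it differed by -1.11 in FOS, -0.72 in JUN, -0.39 in ATF3 and -0.36 in FOSL2. The difference was 0.36 in JUNB, 1.06 in JUND and 1.56 in IER2, and in the members with few reads 0.36 in FOSB, 1.60 in FOSL1 and 0.88 in EGR1. Over 12276 tested protein-coding genes the median difference in log2 CPM was -0.09, and the 10th and 90th percentiles were -0.94 and 0.93. FOS was below the 10th percentile, and JUND, IER2 and, on few reads, FOSL1 were above the 90th. For IER2 this holds on the reads in the gene alone. With the shared reads IER2 stood at 153 CPM in library 2, against 106 and 105 CPM in libraries 1 and 3. That gap is narrower, and its percentile was not computed. GC content was 64.9% in JUNB, 69.7% in JUND, 61.7% in IER2, 57.7% in FOSB, 60.0% in FOSL1 and 55.4% in EGR1, the members with higher CPM in library 2. It was 52.6% in FOS, 56.7% in JUN, 46.7% in ATF3 and 53.3% in FOSL2, the members lower there, so EGR1 and JUN crossed in that order. The part of base composition in the results was not tested.

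Most members are compact genes, and they lie on 6 chromosomes, 4 of them on chromosome 19 (JUNB, IER2, JUND and FOSB). By GENCODE 29 on GRCh38, FOS lies on chromosome 14 at 75278774 to 75282230, JUN on chromosome 1 at 58780788 to 58784327, JUNB on chromosome 19 at 12791496 to 12793315 and IER2 on chromosome 19 at 13150415 to 13154908. The FOS gene spans 3457 bases, and JUN and JUNB have a single exon each. The median tested protein-coding gene spans 32138 bases with 10 exons in its longest-spliced transcript. FOSL2, at 24865 bases, and ATF3, at 55444 bases, are the long members.

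The promoters of FOS, of its partners JUNB and JUN and of EGR1 are shown because FOS had the widest gap between the lines while EGR1, a classic companion of FOS, stayed near 0 in both. Each runs 5′ to 3′ from 250 bases before to 50 bases after the gene start, from RefSeq on GRCh38.p14. Capitals mark the CArG box, to which serum response factor binds, and TGACG, a core part of the cyclic AMP response element, or its reverse complement.
FOS, chr14:75278578-75278877, plus strand: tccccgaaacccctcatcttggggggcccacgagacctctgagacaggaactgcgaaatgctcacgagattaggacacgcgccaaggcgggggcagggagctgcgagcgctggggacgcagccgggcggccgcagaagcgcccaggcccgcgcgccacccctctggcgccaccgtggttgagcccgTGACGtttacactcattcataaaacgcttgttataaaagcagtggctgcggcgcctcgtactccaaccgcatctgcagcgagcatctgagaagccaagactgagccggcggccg
JUNB, chr19:12791236-12791535, plus strand: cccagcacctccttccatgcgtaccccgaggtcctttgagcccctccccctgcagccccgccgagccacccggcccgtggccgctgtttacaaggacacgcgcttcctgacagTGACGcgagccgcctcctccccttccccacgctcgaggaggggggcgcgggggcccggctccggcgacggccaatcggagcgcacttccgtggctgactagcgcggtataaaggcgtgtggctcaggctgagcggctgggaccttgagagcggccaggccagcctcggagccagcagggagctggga
JUN, chr1:58783998-58784297, minus strand: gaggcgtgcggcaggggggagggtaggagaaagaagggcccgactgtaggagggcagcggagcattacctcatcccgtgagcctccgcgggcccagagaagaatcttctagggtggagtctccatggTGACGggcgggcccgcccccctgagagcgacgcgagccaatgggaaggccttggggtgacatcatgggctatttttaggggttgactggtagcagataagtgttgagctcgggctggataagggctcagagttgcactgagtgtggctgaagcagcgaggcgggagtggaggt
EGR1, chr5:138465229-138465528, plus strand: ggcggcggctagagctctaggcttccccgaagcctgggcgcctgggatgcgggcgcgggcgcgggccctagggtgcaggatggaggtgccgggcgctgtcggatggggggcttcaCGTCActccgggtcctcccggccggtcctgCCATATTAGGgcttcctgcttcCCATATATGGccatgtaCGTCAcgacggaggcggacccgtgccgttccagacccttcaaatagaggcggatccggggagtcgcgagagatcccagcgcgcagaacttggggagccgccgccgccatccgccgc
TGACG stands 64 bases before the RefSeq start of FOS, 137 before that of JUNB and 123 before that of JUN. EGR1 holds 2 CArG boxes and 2 TGACG sites.

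Promoter entries were found for 9 of the 10 members, all but FOSL1. TGACG on either strand occurs in 8 of these 9 genes, all but ATF3, against 24.6% of 35116 promoters. The whole element TGACGTCA, which contains TGACG, occurs in JUND alone (1.85% of all promoters), the CArG box in EGR1 alone (1.29%) and the AP-1 site TGANTCA in FOSL2 alone (7.71%). GGGCGG, the GC box, occurs in 7 of the 9 genes, against 45.0% of all promoters. These matches describe the letters in the windows, and an element outside them is not covered.

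The nearest tested protein-coding genes on either side of each member were examined in the same fit. Of 20 neighbours 0 passed with all libraries in edgeR (before adjustment 9 had p below 0.05, DESeq2 called 3 and limma-voom called 1). With CDK12KO library 2 left out, 6 rose and 2 fell, where 19.1% of all tested genes passed. The neighbour that rose most was JDP2, the next tested protein-coding gene after FOS on chromosome 14, 145486 bases beyond its end. JDP2 encodes a leucine zipper protein that pairs with Jun and is known as a repressor at AP-1 sites. It stood at 26.7, 22.4 and 25.5 CPM in CDK12KO and at 6.55, 11.9 and 9.12 CPM in VEC, with all knockout libraries above all vector libraries. Its log2 fold change was 1.44 ± 0.23 with all libraries (adjusted p by edgeR = 0.0535) and 1.51 ± 0.16 without CDK12KO library 2 (adjusted p by edgeR = 3.55e-06, at most 5.34e-05 over the alternatives tried).

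On the other side of FOS, TMED10, a cargo receptor of the secretory pathway, had a log2 fold change of -0.09 ± 0.07 without CDK12KO library 2 (adjusted p by edgeR = 0.403). Between FOS and JDP2 the annotation holds 3 genes, of which LINC01220 and JDP2-AS1 were tested, named after their values were seen. JDP2-AS1, on the strand opposite JDP2, had 21, 10 and 27 reads in CDK12KO and 3, 10 and 10 in VEC, and LINC01220 had 8, 12 and 2 reads in CDK12KO and 15, 13 and 5 in VEC. Without CDK12KO library 2 NENF, before ATF3, rose by 0.70 ± 0.09 on the log2 scale (adjusted p by edgeR = 2.51e-05) and MYSM1, a histone deubiquitinase gene before JUN, fell by 0.61 (adjusted p by edgeR = 0.00209). The other 5 that passed were BABAM2, PRDX2, LSM4 and STX10, which rose by 0.27 to 0.41, and ETF1, which fell by 0.19. The call of each of these 5 ended without CDK12KO library 3, and of all but STX10 without library 1, while that of ETF1 also ended in DESeq2 and with no filter.

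The other leucine zipper factors that can pair with or compete against AP-1 subunits were led by JDP2. Of 32 listed genes 25 were tested. In edgeR 0 passed with all libraries (before adjustment 9 had p below 0.05, DESeq2 called 3 and limma-voom called 1), and 7 rose and 2 fell without CDK12KO library 2, 36% of those tested where 19.1% of all tested genes passed. The list median was a log2 fold change of 0.11 with all libraries and 0.00 without library 2, beside 0.00 and -0.01 over all tested genes. With CDK12KO library 2 left out, CEBPB rose by 0.43 ± 0.07 (adjusted p by edgeR = 0.000387) and ATF4, the effector of the integrated stress response, by 0.37 ± 0.06 (adjusted p by edgeR = 0.000415). The 2 that fell, named after their values were seen, were MAF and NFE2L1. MAF stood at 1.65, 1.70 and 1.09 CPM in CDK12KO and at 3.74, 3.58 and 4.94 CPM in VEC (adjusted p by edgeR = 0.0851 with all libraries and 0.000876 without library 2).

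The other immediate early genes moved in both directions. Of 40 listed genes 32 were tested. With all libraries PHLDA1 rose and HES1 fell, and 30 did not pass. Without CDK12KO library 2, 5 rose and 4 fell, 28.1% of those tested where 19.1% of all tested genes passed. PHLDA1, a growth factor-induced gene of a pleckstrin-like domain protein, stood at 18.2, 18.6 and 17.7 CPM in CDK12KO and at 7.98, 8.90 and 8.85 CPM in VEC. Its log2 fold change was 1.08 ± 0.14 (adjusted p by edgeR = 0.0276, and up to 0.217 with another library than CDK12KO library 2 left out).

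HES1, a repressor induced by Notch, stood at 70.0, 76.7 and 82.4 CPM in CDK12KO and at 147, 151 and 158 CPM in VEC, a log2 fold change of -0.99 ± 0.12 (adjusted p by edgeR = 0.0252, and up to 0.212 with another library than CDK12KO library 2 left out). CITED2, a transcriptional co-regulator gene, fell by 0.71 without CDK12KO library 2 (adjusted p by edgeR = 0.000202), and TRIB1, a pseudokinase gene, fell by 0.70 (adjusted p by edgeR = 0.00175). The remaining genes past the threshold, named after their values were seen, were NFKBIA, DUSP1, GADD45B and IER5L, which rose, and ARC, which fell. DUSP1, the immediate early phosphatase of MAP kinases, stood at 31.0, 15.7 and 30.9 CPM in CDK12KO and at 22.6, 23.1 and 24.4 CPM in VEC, with library 2 below the vector range as for JUN.

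Genes that ERK signalling induces as its own brakes were led by DUSP4. Of 16 listed genes 12 were tested, 1 rose with all libraries and 4 rose without CDK12KO library 2, with 0 lower. These were 8.33% and 33.3% of those tested, beside 0.596% and 19.1% of all tested genes, and the list medians were 0.05 and 0.20. DUSP4, a nuclear phosphatase of ERK, stood at 30.9, 27.9 and 28.8 CPM in CDK12KO and at 6.75, 5.04 and 6.92 CPM in VEC. Its log2 fold change was 2.22 ± 0.17 (adjusted p by edgeR = 0.00737, and up to 0.0887 over the alternatives tried). DUSP5, another ERK phosphatase gene, stood at 2.79, 3.33 and 4.03 CPM in CDK12KO and at 1.84, 1.34 and 1.32 CPM in VEC (adjusted p by edgeR = 0.00938 without library 2). SPRY1 and IL17RD, inhibitors of receptor signalling to ERK, rose by 0.73 ± 0.17 and 0.83 ± 0.29 without CDK12KO library 2 (adjusted p by edgeR = 0.00587 and 0.0488). With all libraries their adjusted p by edgeR was 0.281 and 0.362. In CDK12KO library 2 both lay inside the vector range. SPRY1 stood there at 5.60 CPM, against 5.04 to 7.01 CPM in VEC, and IL17RD at 1.95 CPM, against 1.38 to 2.97 CPM. The calls of DUSP5, SPRY1 and IL17RD ended without CDK12KO library 3, and that of IL17RD also without CDK12KO library 1, VEC library 1 or VEC library 3 and in DESeq2.

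Kinases and factors that act upstream of FOS and JUN were mostly below the threshold. All 40 listed genes were tested, and in edgeR 0 passed with all libraries (before adjustment 8 had p below 0.05, DESeq2 called 1 and limma-voom called 0). With CDK12KO library 2 left out, 3 rose and 4 fell, 17.5% of the list, near the 19.1% of all tested genes that passed. MAPK3, which encodes ERK1, rose by 0.36 ± 0.08 on the log2 scale (adjusted p by edgeR = 0.00537), and RPS6KA3, a kinase activated by ERK, fell by 0.66 (adjusted p by edgeR = 9.04e-05). The acetyltransferase gene EP300 fell by 0.51 (adjusted p by edgeR = 0.00285), and ELK4, a partner of serum response factor at the CArG box, fell by 0.39 (adjusted p by edgeR = 0.00654). HRAS and CRTC2, which also rose, are named after their values were seen. Of 17 genes for turnover and corepression of these factors, such as FBXW7, NAB2 and ZFP36, 0 passed with all libraries in edgeR (before adjustment 1 had p below 0.05, DESeq2 called 0 and limma-voom called 0). Without CDK12KO library 2 CNOT1, the scaffold of the mRNA deadenylase complex, was the only one that passed, 5.88% of the list beside 19.1% of all tested genes. It stood at 96.4, 22.9 and 93.3 CPM in CDK12KO and at 137, 111 and 133 CPM in VEC, and fell by 0.43 without library 2 (adjusted p by edgeR = 0.00145, and 0.258 on the sum of stranded columns, the highest over the alternatives tried).

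Genes often named as AP-1 targets were tested in 18 of 40 cases, since the others had too few reads. In edgeR 0 passed with all libraries (before adjustment 5 had p below 0.05, DESeq2 called 5 and limma-voom called 0), and 5 rose and 1 fell without CDK12KO library 2, 33.3% of those tested beside 19.1% of all tested genes (10.2% higher and 8.88% lower). The list median was 0.28 with all libraries and 0.30 without library 2. MT2A, a metal-binding metallothionein gene, stood at 323, 1144 and 329 CPM in CDK12KO and at 152, 172 and 139 CPM in VEC, a log2 fold change of 1.07 ± 0.07 without library 2 (adjusted p by edgeR = 1.00e-08). CLU, which encodes the chaperone clusterin, rose by 1.01 ± 0.09 (adjusted p by edgeR = 2.60e-07) and FN1, which encodes fibronectin, by 0.92 ± 0.08 (adjusted p by edgeR = 3.19e-07). FN1 in CDK12KO library 2, at 127 CPM, lay inside the vector range of 117 to 148 CPM. VIM and HMOX1 also rose and are named after their values were seen. CCND1, the cyclin D1 gene, stood at 166, 160 and 164 CPM in CDK12KO and at 225, 206 and 202 CPM in VEC. The log2 fold change of CCND1 was -0.37 ± 0.12 with all libraries (adjusted p by edgeR = 0.191) and -0.37 ± 0.07 without library 2 (adjusted p by edgeR = 0.000887). On the sum of stranded columns it was 0.04 with all libraries, in place of -0.37.

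**Figure D5:**
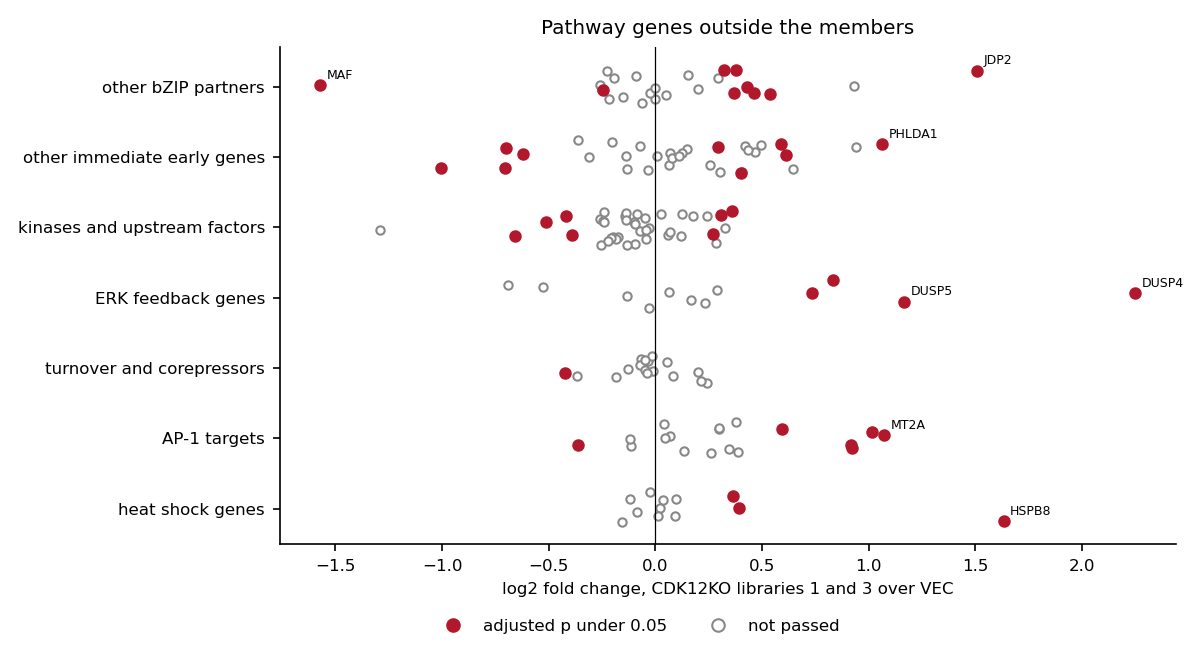
Log2 fold change of CDK12KO libraries 1 and 3 over VEC (horizontal axis) for the tested genes of 7 lists (vertical axis), with filled points for genes past an adjusted p of 0.05 and open points for the rest. JDP2 at 1.51, DUSP4 at 2.25 and HSPB8 at 1.63 lie furthest to the right, and MAF at -1.57 is the furthest to the left among the filled points.

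Heat shock genes, which rise when cells are handled under stress, gave 0 calls with all libraries in edgeR (before adjustment 3 had p below 0.05, DESeq2 called 1 and limma-voom called 1) among 12 tested of 14. With CDK12KO library 2 left out, HSPB1, HSPB8 and HSPE1 rose and 0 fell, 25% of those tested beside 19.1% of all tested genes, and the list median was 0.03. HSPB8, a small heat shock protein gene, stood at 3.68, 3.96 and 3.83 CPM in CDK12KO and at 1.54, 1.01 and 1.04 CPM in VEC (adjusted p by edgeR = 0.000658 without library 2). HSPB1 rose by 0.39 ± 0.07 (adjusted p by edgeR = 0.000559) and HSPE1 by 0.36 ± 0.13 (adjusted p by edgeR = 0.0495) in the same fit. The HSPE1 call ended in DESeq2, on the sum of stranded columns and without CDK12KO library 1 or 3 or VEC library 1. The part of handling stress in the levels of FOS and the other members was not tested.

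These list counts without CDK12KO library 2 depended on single libraries. Over all genes 3123 of 16339 passed, and 1351 without CDK12KO library 1, 1134 without CDK12KO library 3 and 4703 without VEC library 2. The 9 calls among leucine zipper factors became 5 without CDK12KO library 3. The 9 calls among other immediate early genes became 5 without CDK12KO library 1 and 5 without CDK12KO library 3. The 4 ERK feedback calls became 1 without CDK12KO library 3, and the 7 calls among kinases and upstream factors became 3 without CDK12KO library 1 or 3 and 16 without VEC library 2. The calls of TRIB1, EP300 and ELK4 ended without CDK12KO library 3, and that of MAPK3 without CDK12KO library 1. Of the genes named after their values were seen, MAF passed without any 1 further library, whereas each of the other 10 list genes so named lost its call without CDK12KO library 1 or library 3.

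The genes whose levels over the 6 libraries ran closest to FOS were ADAMTSL3, RGS1, MAT1A, MAGEA10 and BMP7. Likeness was the root mean square difference of log2 CPM, centred on the vector mean, among 11590 protein-coding genes, with a median of 2.31. It was 0.29 for ADAMTSL3, an extracellular matrix protein gene, and 0.54 for RGS1, a regulator of G protein signalling. The value was 0.56 for MAT1A, a methionine adenosyltransferase gene, 0.61 for the cancer-testis antigen gene MAGEA10 and 0.65 for BMP7, a bone morphogenetic protein gene. ADAMTSL3 stood at 2.45, 1.76 and 3.05 CPM in CDK12KO and at 0.154, 0.112 and 0.330 CPM in VEC, with library 2 the lowest knockout library as for FOS. MAT1A and BMP7 had their highest level in library 2, at 5.28 and 7.68 CPM. Vector levels rest on few reads: 3, 2 and 6 in ADAMTSL3, 1, 0 and 6 in RGS1 and 5, 4 and 10 in MAT1A. A mean of at least 1 CPM over the 6 libraries was required, which all but MAGEA10 reached only through the knockout libraries.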

How the data were processed

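Total RNA of 6 C4-2 libraries was sequenced after RNeasy extraction and SMARTer library preparation, per the labels' protocols. Per the submitters' processing notes, STAR, FastQC and GRCh38 were used. Versions and the annotation were not stated in the sources used here. The authors deposited whole-number read counts per gene, not normalised, in 62696 gene rows after 4 summary rows, which stayed out of library sizes and tests. The unstranded column was used, since the stranded columns had ratios of 1.02 to 1.04. Reads over 2 genes, 11.1% to 14.4% of all reads, are left out of that column. The sum of the stranded columns counts a read over 2 genes on opposite strands once for each.

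The tests ran in edgeR 4.0.16 under R 4.3.3 (TMM factors, filterByExpr, robust quasi-likelihood fit, Benjamini-Hochberg adjustment over all tested genes, threshold 0.05), on all 6 libraries and on 5 without CDK12KO library 2. SE is the absolute log2 fold change over the root of its F value. The fitting script was tested on simulated data. As alternatives, voom from limma 3.58.1 and DESeq2 1.42.0 were run. Names came from a gene name table (62672 of 62696 matched), coordinates, exonic lengths and GC content from GENCODE 29, whose gene models need not be those used for counting, and promoters from RefSeq on GRCh38.p14. The members and the 7 lists (199 symbols) were chosen with earlier results of these data known. Named are all members; from each list every gene called with all libraries and up to 4 with the smallest p called without CDK12KO library 2, at a mean of at least 1 CPM; called neighbours; and the 5 genes most like FOS. Others are said to be named after their values were seen. Some genes that are counted in these lists are not reported here by name. A count of 0 was taken to allow up to 3 counts.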

Additional observations from a re-analysis of the deposited data

How the results depend on the processing

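With all libraries the 94 calls over all genes became 980 in DESeq2, 363 with no filter on low counts and 5 with the replicate block, and 4 to 3123 with 1 library left out. In DESeq2 the list counts were 3 for leucine zipper factors, 4 for other immediate early genes, 1 for kinases and upstream factors, 2 for ERK feedback, 5 for AP-1 targets and 1 for heat shock. With no filter they were 2 for leucine zipper factors, 2 for AP-1 targets and 1 for heat shock. Heat shock had 1 at 1 CPM in 3 libraries and 1 in limma-voom, where leucine zipper factors also had 1. On the sum of stranded columns other immediate early genes had 1. With the replicate block other immediate early genes and ERK feedback had 0. Leaving out 1 library gave 0 to 9 for leucine zipper factors, 0 to 9 for other immediate early genes, 0 to 7 for kinases, 0 to 4 for ERK feedback, 0 to 1 for turnover, 0 to 6 for AP-1 targets and 0 to 3 for heat shock. Without CDK12KO library 2, leaving out a further library gave 1134 to 4703 genes, 5 to 12, 5 to 10, 3 to 16, 1 to 6, 1 to 2, 4 to 7 and 2 to 4 in the same order of lists; a lone knockout library was assumed to vary like the vector libraries. In that fit the replicate block gave 5540 genes, 19 kinases and upstream factors, 2 turnover genes and 6 heat shock genes. There VEC library 2 stands alone in its block and adds nothing to the contrast, much as when it is left out. Same-numbered libraries deviated together at r of 0.0841 to 0.194 across genes, each correlating best with its own number. CDK12KO library 1 came close to that with VEC library 3, at 0.0762, and CDK12KO library 3 with VEC library 1, at 0.0624. The unlike-numbered pairs that hold a library 2 lay at -0.193 to -0.0948. The match is a weak hint from the data and not from the design, so the numbers were not taken to pair the libraries. The cause of these shifts was not tested, beside the smaller number of libraries where libraries were left out. FOS, FOSB, FOSL2, JUNB, JUND, ATF3 and IER2 kept their direction under every alternative run in which they were tested. The sign changed for JUN with all libraries (-0.06 without CDK12KO replicate 3) and for FOSL1 without CDK12KO library 2 (-0.03 with the replicate block and -0.01 without VEC replicate 2). FOSB rose to a log2 fold change of 1.64 without VEC replicate 3, and IER2 fell to 0.48 on the sum of stranded columns. FOSB, FOSL1 and EGR1 rest on at most 23 reads a library, which limits what can be said of them.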
